A study of Homo sapiens with 6 samples.

Results

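The enzymes described here are the cytochrome P450s and the UDP-glucuronosyltransferases (UGTs) of Huh7, an established human hepatocellular carcinoma line. All genes of the deposited table that were annotated as protein-coding and carried a symbol of the form CYP or UGT1, UGT2, UGT3 with subfamily letter and number were taken, apart from CYP51A1. That gave 75 of the 58735 genes listed, or of 19951 protein-coding ones, made up of 54 P450 genes and 21 UGT genes. RNA sequencing had been done on 3 shTRIM15 libraries, from cells with a short hairpin RNA that knocks down TRIM15, and 3 shcontrol libraries, from cells with a control hairpin. All 6 came from Huh7 cells grown in RPMI-1640 with fetal bovine serum, and the labels name no drug, inducer or liver tissue. Because the comparison has no liver sample, "kept" and "lost" mean above or below a set level in these cells. The hairpin sequences, the number of hairpins, whether the cells were 1 clone, and whether replicates were separate cultures are not given, so p-values measure the spread between these libraries, which may be technical.

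P450s are heme enzymes that insert an atom of oxygen into their substrate, with electrons passed on by a reductase in the endoplasmic reticulum or by ferredoxin in mitochondria. UGTs join glucuronic acid, taken from UDP-glucuronic acid, to drugs, bilirubin, bile acids and steroids, which makes them soluble for excretion. In the adult liver a limited set of both families does most of the clearance of drugs, and other P450s there make bile acids, activate vitamin D and break down retinoic acid. Liver cell lines are widely known to carry less of the drug-metabolizing set than hepatocytes do.

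The feature that P450s share is a loop near the end of the protein in which a cysteine holds the heme iron. A match to that loop (phenylalanine, any 2 residues, glycine, any 3, cysteine, any residue, glycine) was found once in the coding sequence of 51 of the 54 P450 genes and not in CYP20A1, CYP39A1 and CYP8B1, which says only that this pattern was not met. The 30 bases of coding sequence are printed for the 3 P450s with the highest level in these cells, for the only one that passed the test, and for close relatives that differed in level. They come from GENCODE 29 on GRCh38, and capitals mark the cysteine codon. The loop lies at chr2:72132437-72132466 on the minus strand for CYP26B1, at chr15:74720651-74720680 on the minus strand for CYP1A1, at chr2:218814686-218814715 on the plus strand for CYP27A1, at chr7:99650157-99650186 for CYP3A5 and at chr7:99760903-99760932 for CYP3A4, both on the minus strand. In CYP2S1, CYP2A6 and CYP2A7 on chromosome 19 it crosses an exon junction, and it begins at coding base 1297 of CYP2S1 and at coding base 1294 of CYP2A6 and CYP2A7.
CYP26B1: ttcggtggcggtgtccggaccTGCctgggc
CYP1A1: tttggcatgggcaagcggaagTGTatcggt
CYP27A1: tttggctatggggtccgggccTGCctgggc
CYP2S1: ttctccttagggaagcgtgtcTGCcttgga
CYP2A6: ttttccatcggaaagcggaacTGTttcgga
CYP2A7: ttttccatcggaaagcggaacTGTttcgga
CYP3A5: tttggaactggacccagaaacTGCattggc
CYP3A4: tttggaagtggacccagaaacTGCattggc
CYP2S1 differed from CYP26B1 at 15 of the 30 bases, from CYP1A1 at 14, from CYP27A1 at 12 and from CYP2B6, of the same cluster on chromosome 19, at 5. CYP2A6 and CYP2A7 had the same 30 bases, and CYP3A5 and CYP3A4 differed at 1.

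Huh7 cells held appreciable transcript of a minority of these genes. Levels are FPKM, reads per length of gene and size of library. The length is that of all annotated exons of a gene together. A gene whose main transcript is much shorter than that length therefore gets a lower FPKM from the same reads. A gene was tested when at least 3 of the 6 libraries had 0.5 FPKM or more, and the rest of the members were above 0 below that level, or listed at 0 in every library. Of the 75 genes, 19 passed that filter, 45 were above 0 but under it, and 11 were listed at 0 throughout. They were 16 of the 54 P450s and 3 of the 21 UGTs.

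By role, the filter was passed by 6 of 20 P450s of drug and xenobiotic oxidation, 4 of 14 that act on fatty acids and eicosanoids, 2 of 6 of bile acid and oxysterol synthesis, 2 of 3 of vitamin D and 1 of 4 of retinoids. None of the 6 P450s of steroid hormone synthesis passed, and CYP11B1, CYP11B2 and CYP17A1 of that pathway were listed at 0 in every library. CYP20A1, which has no agreed substrate, passed. Among the UGTs it was passed by 1 of 9 UGT1A genes, 2 of 10 UGT2 genes and neither UGT3A gene.

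**Figure D1:**
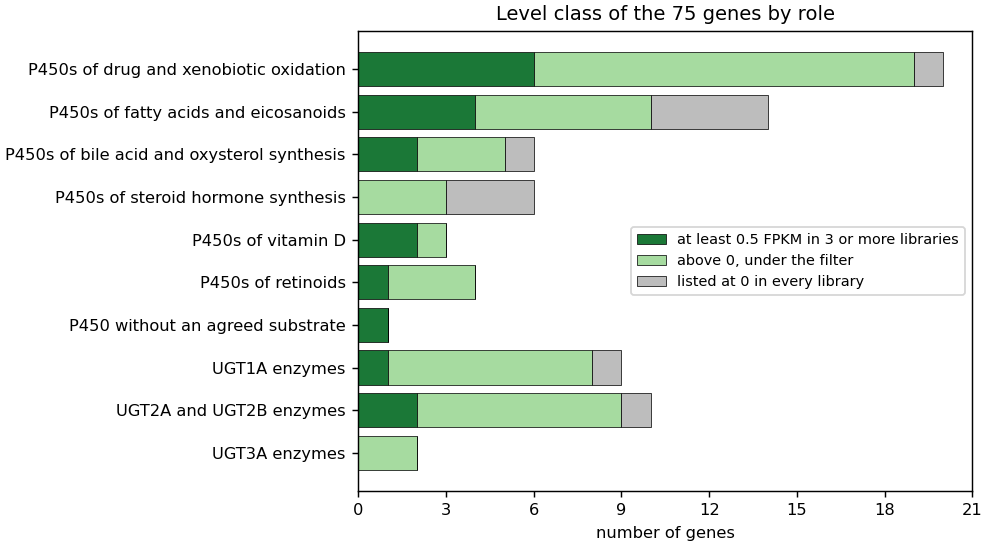
Number of P450 and UGT genes (horizontal axis) in each role group, coloured by level class over all 6 Huh7 libraries: at least 0.5 FPKM in 3 or more libraries, above 0 but under that filter, or listed at 0 in every library. In each of the 4 largest groups most genes lie outside the darkest segment, which holds 6 of 20, 4 of 14, 2 of 10 and 1 of 9 genes.

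A few genes carried most of the signal. Summed FPKM of the 54 P450s was 66.0, 64.8 and 65.8 in shTRIM15 replicates 1 to 3, and 66.3, 66.9 and 65.1 in shcontrol replicates 1 to 3. CYP26B1, CYP1A1 and CYP27A1 made up 64.2 ± 0.558% of that sum in shTRIM15 and 62.9 ± 0.380% in shcontrol (SD, n = 3 each). Summed FPKM of the 21 UGTs was 5.81, 5.07 and 5.16 in shTRIM15 and 5.26, 5.98 and 5.32 in shcontrol, of which UGT2B4 made up 50.4 ± 6.30% and 53.1 ± 2.48% (SD, n = 3 each). The summed level of each family overlapped between the groups, so neither sum was separated by the knockdown. The share of CYP26B1, CYP1A1 and CYP27A1 in the P450 sum did not overlap. It was 63.9 to 64.9% in shTRIM15 against 62.6 to 63.4% in shcontrol, a difference that was not tested. The share of UGT2B4 in the UGT sum overlapped. Only 3 tested members lay above the median level of all tested genes, which was 4.71 FPKM.

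CYP26B1 (ENSG00000003137, chr2:72129238-72148038, minus strand, GRCh38), which clears retinoic acid, had the highest level, with 15.9, 15.9 and 15.7 FPKM in shTRIM15 against 14.9, 14.7 and 15.7 FPKM in shcontrol. CYP1A1 (ENSG00000140465, chr15:74719542-74725610, minus strand), the oxidase of aromatic hydrocarbons that the aryl hydrocarbon receptor AHR switches on, had 14.0, 13.6 and 14.5 FPKM in shTRIM15 against 13.7, 14.6 and 13.9 FPKM in shcontrol. CYP27A1 (ENSG00000135929, chr2:218781749-218815293, plus strand), the mitochondrial sterol 27-hydroxylase of the alternative bile acid pathway, had 12.3, 11.9 and 12.5 FPKM in shTRIM15 against 13.1, 12.6 and 11.7 FPKM in shcontrol. The order CYP26B1, CYP1A1, CYP27A1 held in every library of both groups, although in shcontrol the lowest CYP26B1 value and the highest CYP1A1 value were nearly equal.

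The relatives of CYP26B1, CYP26A1 and CYP26C1, which also clear retinoic acid, were under the filter. CYP26A1 had 11, 20 and 11 reads in shTRIM15 against 12, 8 and 7 in shcontrol, and CYP26C1 had 8, 17 and 12 reads in shTRIM15 against 4, 8 and 7 in shcontrol, with overlapping groups.

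The next genes in level were several-fold lower than CYP27A1. CYP20A1 had 4.25, 3.62 and 3.48 FPKM in shTRIM15 against 4.01, 3.74 and 4.24 FPKM in shcontrol. CYP2R1, a vitamin D 25-hydroxylase, had 3.64, 3.91 and 3.41 FPKM in shTRIM15 against 3.66, 4.13 and 4.18 FPKM in shcontrol. UGT2B4, which conjugates bile acids, had 2.52, 2.65 and 2.86 FPKM in shTRIM15 against 2.85, 3.01 and 2.92 FPKM in shcontrol. CYP20A1 and CYP2R1 overlapped in level, and each lay above UGT2B4 in every library. CYP4F3, an omega-hydroxylase of leukotrienes and fatty acids, had 2.44, 2.12 and 2.07 FPKM in shTRIM15 against 2.42, 2.45 and 2.18 FPKM in shcontrol.

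Enzymes known from adult liver were mostly below the filter, as was a larger share of the other members. A textbook list of 31 adult liver enzymes was set beside the other 44 members. The filter was passed by 11 of the 31, whereas 18 were above 0 under it and 2 were listed at 0, namely CYP4A11, a fatty acid omega-hydroxylase, and CYP7A1, the rate-limiting enzyme of classical bile acid synthesis. Of the other 44 genes, 8 passed, 27 were under the filter and 9 were listed at 0. Of all 58735 genes listed, protein-coding or not, 14847 passed. All members are protein-coding, and the share that passed among the 19951 protein-coding genes was not computed. A limit of 3 reads per library corresponds to between 0.0215 and 0.102 FPKM for the 11 genes listed at 0, and covers counting error only.

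The adult liver enzymes that passed, beside CYP27A1, CYP2R1, UGT2B4 and CYP4F3, were CYP2J2, CYP2B6, UGT1A1, CYP4V2, CYP3A5, CYP39A1 and CYP2A6. CYP2J2, an epoxygenase of arachidonic acid, had 1.95, 2.01 and 1.92 FPKM in shTRIM15 against 1.83, 1.89 and 1.46 FPKM in shcontrol, with no overlap. CYP2B6, which oxidizes bupropion and efavirenz, had 1.59, 1.76 and 1.38 FPKM in shTRIM15 against 1.82, 1.69 and 1.57 FPKM in shcontrol. UGT1A1, the bilirubin transferase, had 1.17, 0.997 and 0.829 FPKM in shTRIM15 against 0.867, 0.685 and 0.604 FPKM in shcontrol. The lowest UGT1A1 value in shTRIM15 lay below the highest in shcontrol, so the groups overlapped.
CYP4V2, a fatty acid hydroxylase of the eye and liver, had 0.811, 0.908 and 0.732 FPKM in shTRIM15 against 0.891, 0.919 and 0.876 FPKM in shcontrol. CYP3A5, the polymorphic relative of CYP3A4, had 0.863, 0.764 and 0.666 FPKM in shTRIM15 against 0.868, 1.01 and 0.766 FPKM in shcontrol. CYP39A1, a 7-alpha-hydroxylase of 24-hydroxycholesterol, had 0.596, 0.553 and 0.733 FPKM in shTRIM15 against 0.569, 0.674 and 0.726 FPKM in shcontrol. All 3 overlapped between the groups and stood close to the filter.
CYP2A6, the nicotine oxidase, was the member just inside the filter, at 0.524, 0.386 and 0.793 FPKM in shTRIM15 against 0.298, 0.687 and 0.223 FPKM in shcontrol, from 118 reads in all. Just outside stood CYP2C18 with 23, 13 and 23 reads in shTRIM15 against 14, 13 and 5 in shcontrol, which put only 2 libraries at 0.5 FPKM or more.

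The 18 liver enzymes under the filter had few reads. CYP3A4, the main drug oxidase of adult liver, had 4, 4 and 2 reads in shTRIM15 libraries against 2, 3 and 2 in shcontrol libraries, or 0.0561 ± 0.0172 and 0.0415 ± 0.0109 FPKM (SD, n = 3 each). CYP2E1, the ethanol and acetaminophen oxidase, had 23, 18 and 10 reads in shTRIM15 against 24, 17 and 18 in shcontrol. CYP2D6, which oxidizes codeine and many antidepressants, had 16, 17 and 16 reads in shTRIM15 against 14, 15 and 13 in shcontrol. CYP3A4 thus lay far under its relative CYP3A5, which averaged 0.764 FPKM in shTRIM15 and 0.883 FPKM in shcontrol.
Of the CYP2C drug oxidases, CYP2C8 had 6, 12 and 8 reads in shTRIM15 against 14, 8 and 8 in shcontrol. CYP2C19, which activates clopidogrel, had 0, 0 and 2 reads in shTRIM15 against 1, 0 and 1 in shcontrol. None of the 4 CYP2C genes, which lie together at chr10:94683621-95069497, passed the filter.
CYP1A2, the caffeine oxidase and the neighbour of CYP1A1, had 1, 0 and 0 reads in shTRIM15 against 0, 1 and 0 in shcontrol. CYP4F2, a vitamin K hydroxylase, had 0, 0 and 1 reads in shTRIM15 against 0, 0 and 1 in shcontrol. Both were at or under the 3-read limit in every library, whereas CYP1A1 averaged 14.0 FPKM in shTRIM15 and 14.1 FPKM in shcontrol.
The bile acid enzymes CYP7B1, the oxysterol 7-alpha-hydroxylase, and CYP8B1, the sterol 12-alpha-hydroxylase, were low as well. CYP7B1 had 3, 1 and 2 reads in shTRIM15 against 3, 2 and 4 in shcontrol. CYP8B1 had 2, 1 and 4 reads in shTRIM15 against 3, 0 and 0 in shcontrol. Of the bile acid P450s on the liver list, CYP27A1 was therefore the only one above 1 FPKM.

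Among liver UGTs under the filter, UGT2B7, the morphine transferase, had 21, 12 and 14 reads in shTRIM15 against 16, 18 and 18 in shcontrol, and no library above 0.493 FPKM. UGT2B15, which conjugates androgens, had 24, 9 and 11 reads in shTRIM15 against 10, 16 and 16 in shcontrol, and 1 library above the minimum. UGT2B10 had 0, 0 and 0 reads in shTRIM15 against 0, 2 and 2 in shcontrol. These UGT2 genes lie in 1 cluster with UGT2B4, at chr4:68537184-69653249, in which 2 of 10 members passed the filter.
UGT2B17, an androgen transferase that is commonly deleted in people, had 0, 1 and 0 reads in shTRIM15 against 1, 2 and 0 in shcontrol. UGT1A6, which conjugates small phenols, had 7, 4 and 5 reads in shTRIM15 against 3, 2 and 2 in shcontrol. UGT1A3 had 1, 0 and 4 reads in shTRIM15 against 1, 3 and 4 in shcontrol. All of these counts were in single digits.
UGT1A9, the propofol transferase, had 2, 0 and 0 reads in shTRIM15 against 1, 0 and 0 in shcontrol. UGT1A4 had 0, 1 and 0 reads in shTRIM15 against 0, 0 and 0 in shcontrol. Of the 31 liver enzymes, 13 had 20 or fewer reads in all 6 libraries together.

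Genes side by side on a chromosome differed in level. At chr7:99648194-99866102, CYP3A5 passed and CYP3A4, CYP3A7 and CYP3A43 did not. At chr19:40843538-41207539, CYP2A6, CYP2B6 and CYP2S1 passed and CYP2A7, CYP2A13 and CYP2F1 did not. In the CYP4F cluster at chr19:15508493-15934867, 2 of 6 genes passed, and at chr1:46757838-47149741, where the CYP4A, CYP4B, CYP4X and CYP4Z genes lie, 0 of 5 did.

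**Figure D2:**
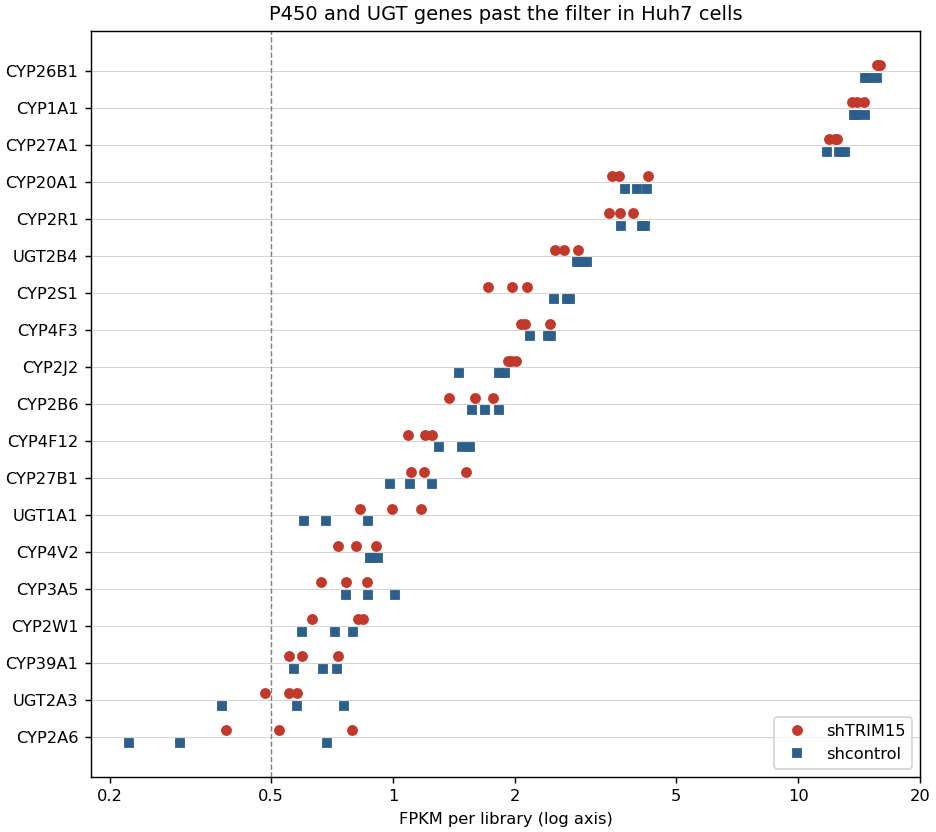
FPKM (log axis) of each of the 19 P450 and UGT genes past the filter in the 3 shTRIM15 libraries (circles) and the 3 shcontrol libraries (squares), with the 0.5 FPKM minimum as a dashed line. CYP26B1, CYP1A1 and CYP27A1 lie between 11.7 and 15.9 FPKM, and the circles and squares of CYP2S1 do not overlap.

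Some of these genes share sequence, and how reads that fit several genes were counted is not given. In 100-base windows along the main GENCODE 29 transcript, 36 of the 75 members had no window present in another gene. Among the 19 tested members 13 had none, and 3 had more than 5% of their windows shared, namely UGT1A1 with 60.5%, CYP2A6 with 11.7%, most of them with CYP2A7, and CYP4V2 with 5.30%, with KLKB1. The UGT1A genes at chr2:233617645-233773310 have separate first exons and a common remainder, and their shared windows ran from 58.2 to 75.6%, so reads of UGT1A1 and of the other UGT1A genes cannot be fully told apart. Under the filter, 23 of 45 members were above 5%. Among them were CYP2C19 with 80.8% and CYP2C18 with 35.9%, most with AL583836.1. CYP3A7 had 74.7%, most with CYP3A7-CYP3A51P, and CYP26A1 had 32.2%, with AL358613.3. Of the 11 members listed at 0, 3 were above 5%. These were UGT2A2 with 92.9%, shared with UGT2A1, UGT1A5 with 65.0% and CYP4A11 with 11.1%, shared with CYP4A22. If shared reads were left out, the counts of such genes would be too low, which was not tested. CYP2S1, CYP26B1, CYP1A1 and CYP27A1 shared none.

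TRIM15, a tripartite-motif protein of the family of RING ubiquitin ligases, was lower in the libraries labelled as knocked down for it. It had 3.23, 2.11 and 2.51 FPKM in shTRIM15 against 5.17, 5.09 and 4.88 FPKM in shcontrol, or 51.8% of the shcontrol mean, with no overlap. Its log2 fold change was -0.75 (SE 0.106, limma adjusted p = 0.00416), while the two-sided exact permutation test gave p = 0.1, the smallest that 3 against 3 allows. Whole reads recovered from the table were 18664890, 19556855 and 17332508 in shTRIM15 and 18143502, 17715210 and 18217903 in shcontrol. Of 14847 tested genes, 2824 passed the test, or 19.0%, with 1326 higher and 1498 lower in shTRIM15 (10.1% lower). When FPKM was rescaled to the same sum in every library, the split was 1889 higher and 1146 lower, so the balance of directions over all genes depended on scaling. Of markers of other cell types, the 8 endothelial markers were below 0.5 FPKM in every library, with CDH5 at 0, as were 7 of 9 immune markers, with MS4A1 at 0. The other immune markers were present in all 6 libraries, CD14 at 13.3 to 14.5 FPKM and LYZ at 2.84 to 3.79 FPKM. Neither passed the test (limma adjusted p = 0.746 and 0.390). All 10 hepatocyte markers were tested and 2 were lower, TF and FGB, with ALB at 916 to 936 FPKM in shTRIM15 and 893 to 911 FPKM in shcontrol, and 3 of 5 biliary markers were tested with 1 higher, SOX9.

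Among the 19 P450 and UGT genes tested, the response to the knockdown was small on the log2(FPKM + 1) scale. That scale understates changes of low genes. Only CYP2S1 passed the test, and it fell, so that 0 members were higher and 1 was lower out of 19 tested, or 5.26%. Over all tested genes the share was 19.0%, and it was 14.0% among the 11446 tested genes whose mean level lay in the members' range of 0.485 to 15.4 FPKM. That range is wide, and only 3 tested members lay above the median of all tested genes, 4.71 FPKM. Neither share is therefore closely matched to the members in level. The median log2 fold change was -0.03 over the 19 members and 0.0014 over all tested genes, and the median absolute value was 0.07 and 0.10. Members had a median SE of 0.0774 against 0.0691 for genes in the same level range, so their precision was slightly lower. Groups did not overlap for 4 of 19 members, or 21.1%, against 37.8% of all tested genes. These 4 were CYP26B1, CYP2S1, CYP2J2 and CYP4F12. For CYP26B1 the separation was thin, with a lowest shTRIM15 value of 15.665 FPKM and a highest shcontrol value of 15.653 FPKM.

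CYP2S1 (ENSG00000167600, chr19:41193049-41207539, plus strand, GRCh38) is a P450 of lung, skin and other epithelia that is inducible through AHR, and is not among the typical liver enzymes. It had 1.72, 1.97 and 2.14 FPKM in shTRIM15 against 2.73, 2.68 and 2.49 FPKM in shcontrol, from 93, 112 and 108 reads against 142, 136 and 130 reads. Every shTRIM15 library lay below every shcontrol library. Means were 1.94 ± 0.214 FPKM in shTRIM15 and 2.64 ± 0.127 FPKM in shcontrol (SD, n = 3 each), so shTRIM15 cells held 73.7% of the shcontrol level. The log2 fold change was -0.31 (SE 0.0700, 95% interval -0.47 to -0.14, limma adjusted p = 0.0247). The call was not held without shTRIM15 replicate 1 (adjusted p = 0.0623) or 2 (0.0639), without shcontrol replicate 1 (0.0707) or 2 (0.0749), with no filter on low values (0.0763), or with the replicate number as a block (0.0712). The fall kept its direction in each of these fits. In bulk RNA, fewer cells with the transcript and less transcript per cell cannot be told apart. Moving with the groups too were the summed levels of 8 fibroblast and stellate cell markers, 56.1 to 58.4 FPKM in shTRIM15 and 63.1 to 66.7 FPKM in shcontrol, of which LUM alone was 49.4 to 51.9 FPKM in shTRIM15 and 55.9 to 59.7 FPKM in shcontrol. The 8 did not move together. LUM and COL1A2 fell, COL1A1 and RGS5 did not pass (adjusted p = 0.965 and 0.95), and the 4 below 0.5 FPKM throughout included COL3A1, which ran the other way without overlap, at 0.296, 0.312 and 0.293 FPKM in shTRIM15 against 0.179, 0.233 and 0.17 FPKM in shcontrol. The part of these markers in the CYP2S1 result was not tested.

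**Figure D3:**
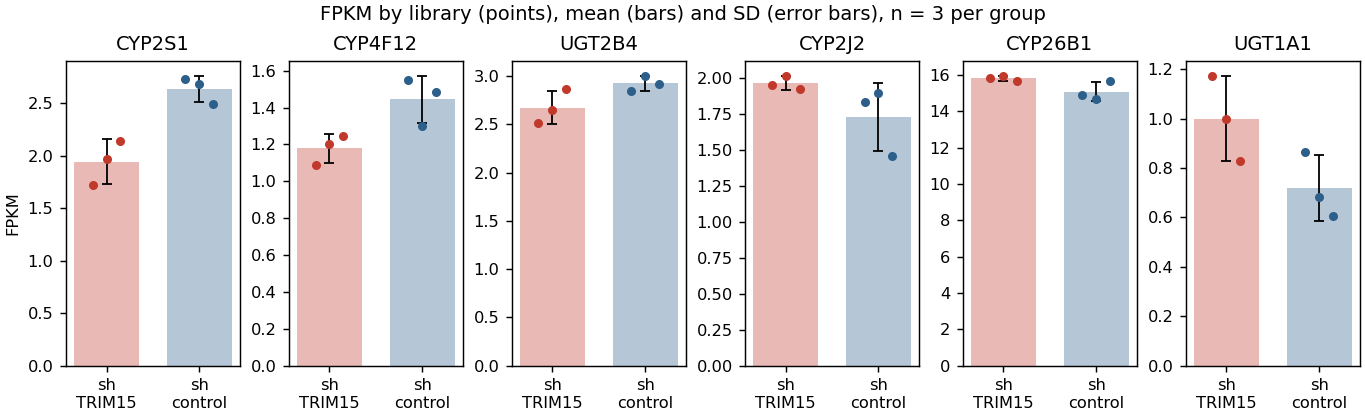
FPKM by library (points), group mean (bars from 0) and SD (error bars, n = 3) of CYP2S1, CYP4F12, UGT2B4, CYP2J2, CYP26B1 and UGT1A1, with shTRIM15 left of shcontrol in each panel. CYP2S1 shows the widest gap relative to its spread, at 1.94 against 2.64 FPKM.

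The other 18 tested members did not pass, with adjusted p between 0.168 and 0.957. CYP4F12, a fatty acid hydroxylase, had 1.09, 1.2 and 1.25 FPKM in shTRIM15 against 1.55, 1.30 and 1.48 FPKM in shcontrol, a log2 fold change of -0.17 (95% interval -0.34 to 0.0067, adjusted p = 0.168). UGT1A1 had the highest fold change on the log2(FPKM + 1) scale, 0.22 (95% interval -0.02 to 0.46, adjusted p = 0.192), with 1.0 ± 0.173 FPKM in shTRIM15 and 0.719 ± 0.135 FPKM in shcontrol (SD, n = 3 each). As a plain ratio of means CYP2A6 was higher, at 1.41 against 1.39 for UGT1A1. For UGT1A1 and CYP4F12 the interval admits both no difference and one as large as that of CYP2S1.
CYP26B1 had a log2 fold change of 0.07 (95% interval -0.01 to 0.14, adjusted p = 0.20), and CYP2J2 had 0.12 (95% interval -0.06 to 0.31, adjusted p = 0.330). UGT2B4 had -0.10 (95% interval -0.22 to 0.03, adjusted p = 0.279), and CYP2R1 had -0.10 (95% interval -0.25 to 0.05, adjusted p = 0.326). CYP2A6 had the widest interval, -0.21 to 0.55. The tightest bounds belonged to the abundant genes. For CYP1A1 the 95% interval was -0.09 to 0.09, and for CYP27A1 it was -0.12 to 0.08, so differences beyond these sizes lay outside the intervals, and the sign of both fold changes, -0.0041 and -0.02, turned positive when FPKM was rescaled to the same sum. CYP27B1, the vitamin D 1-alpha-hydroxylase, had 0.10 (adjusted p = 0.513) and CYP2W1, a P450 known from tumours, had 0.05 (adjusted p = 0.761). The remaining CYP20A1, CYP4F3, CYP2B6, CYP4V2, CYP3A5, CYP39A1 and UGT2A3, a UGT of liver and gut, lay between -0.09 and -0.02.

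**Figure D4:**
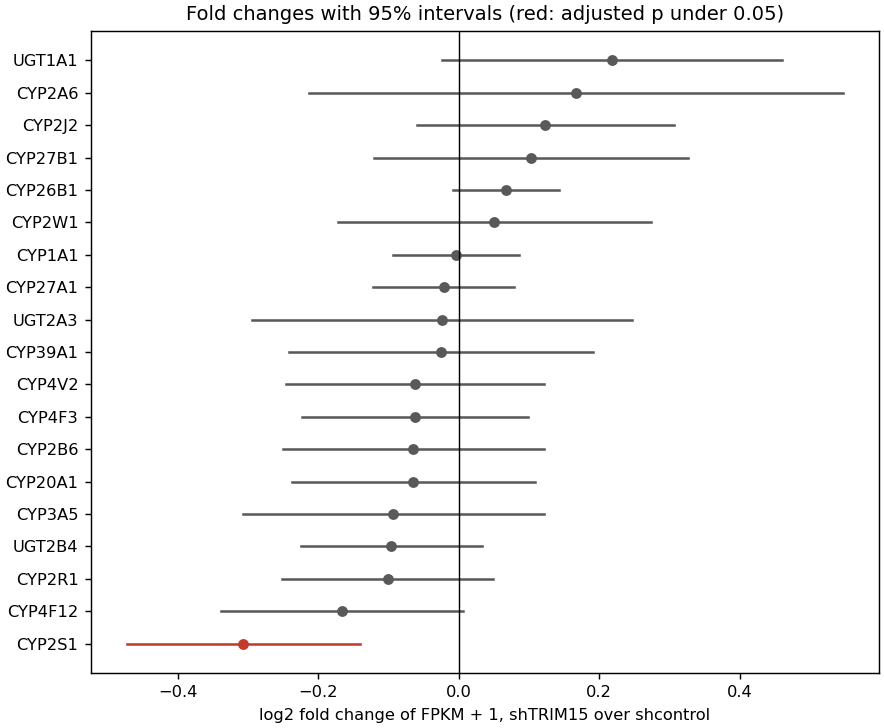
Log2 fold change of FPKM + 1, shTRIM15 over shcontrol, with 95% intervals from limma for the 19 tested P450 and UGT genes, in red where the adjusted p was under 0.05. Of the 19 intervals, the one that excludes 0 belongs to CYP2S1 at -0.31.

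Under the filter, 45 members had between 1 and 122 reads in all, 30 of them 20 or fewer. The highest count in any library was 32, in CYP1B1, the oxidase of estrogens and hydrocarbons. Of these 45 members, 4 did not overlap between groups, CYP2U1, UGT1A6, UGT1A10 and CYP2F1, and were picked out after their values were seen. Groups did not overlap for 37.8% of all tested genes, and the share over all genes under the filter was not computed. CYP2U1, a fatty acid hydroxylase, had 5, 6 and 5 reads in shTRIM15 against 15, 10 and 7 in shcontrol. UGT1A10, a transferase of the gut, had 0, 0 and 0 reads in shTRIM15 against 6, 4 and 2 in shcontrol, and shares 62.4% of its windows with other UGT1A genes. In the limma fit with no filter the lowest adjusted p among these 45 genes was 0.15, for UGT1A10, so none was called there either.

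Most genes of the pathways that feed these enzymes did not pass the test, and those that passed moved in both directions. The same holds for most genes at large, as 19.0% of all tested genes passed and 10.1% were lower. That share stands beside the count of each list below, and no list was tested against it. Of 9 electron partners, 8 were tested, 2 were higher and 1 was lower, with a median log2 fold change of 0.06. POR, the reductase that serves every P450 of the endoplasmic reticulum, had 25.9, 26.6 and 25.3 FPKM in shTRIM15 against 26.0, 25.9 and 24.7 FPKM in shcontrol (log2 fold change 0.02, adjusted p = 0.678). CYB5R3, the cytochrome b5 reductase, rose by a log2 fold change of 0.11 (adjusted p = 0.0268), and CYB5B, a cytochrome b5 of the outer mitochondrial membrane, by 0.10 (adjusted p = 0.0328). PGRMC2, a heme-binding membrane protein, had 12.5, 12.6 and 12.5 FPKM in shTRIM15 against 14.4, 15.0 and 16.3 FPKM in shcontrol, and fell by 0.26 on the log2 scale (adjusted p = 0.00968). The call of CYB5R3 was lost on leaving out any library other than shTRIM15 replicate 2, with adjusted p up to 0.0903, and that of CYB5B on leaving out any other than shcontrol replicate 2, with adjusted p up to 0.0921.

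Heme synthesis and breakdown had 12 genes tested, of which 1 was higher and 1 lower, with a median log2 fold change of 0.04. CPOX, which makes protoporphyrinogen, fell to 19.2, 20.1 and 19.1 FPKM in shTRIM15, against 23.2, 22.8 and 22.5 FPKM in shcontrol (log2 fold change -0.22, adjusted p = 0.00346). FECH, which inserts the iron, rose to 7.42, 7.77 and 7.22 FPKM in shTRIM15, against 6.29, 6.07 and 6.11 FPKM in shcontrol (log2 fold change 0.24, adjusted p = 0.00668). ALAS1, the rate-limiting synthase, did not pass (log2 fold change -0.07, adjusted p = 0.254). Supply of UDP-glucuronic acid and removal of glucuronides had 7 genes tested, 1 higher and 1 lower, with a median of 0.0084. UGP2, which makes UDP-glucose, fell by 0.19 on the log2 scale (adjusted p = 0.00403), and SLC35D2, a nucleotide sugar transporter, rose by 0.16 (adjusted p = 0.0108). UGDH, which makes UDP-glucuronic acid itself, had a log2 fold change of 0.0084 (adjusted p = 0.827).

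Of 26 factors that regulate P450 and UGT genes, 23 were tested, 1 was higher and 5 were lower, with a median log2 fold change of -0.01. CEBPA, a factor of hepatocyte differentiation, had 55.2, 55.3 and 56.5 FPKM in shTRIM15 against 74.9, 72.3 and 67.1 FPKM in shcontrol, and fell by 0.35 on the log2 scale (adjusted p = 0.00171). ONECUT1 fell by 0.23 (adjusted p = 0.010), NR5A2, an activator of bile acid genes, by 0.18 (adjusted p = 0.00608), and NFE2L2, which turns on antioxidant genes, by 0.12 (adjusted p = 0.0119). NR1H4, the bile acid receptor, had 3.38, 2.69 and 2.54 FPKM in shTRIM15 against 3.87, 3.98 and 3.58 FPKM in shcontrol, and fell by 0.32 (adjusted p = 0.0429), a call lost on leaving out any library other than shTRIM15 replicate 1, with adjusted p up to 0.119, and also with no filter (0.125), no mean-variance trend (0.0633) or the replicate block (0.0518). NR1H2, an oxysterol receptor, rose by 0.24 (adjusted p = 0.00378).
AHR had 6.03, 6.02 and 6.41 FPKM in shTRIM15 against 6.02, 6.10 and 6.56 FPKM in shcontrol (log2 fold change -0.01, adjusted p = 0.864). HNF4A, a main activator of liver genes, had 32.3, 32.5 and 31.7 FPKM in shTRIM15 against 30.1, 30.9 and 30.3 FPKM in shcontrol and missed the threshold (log2 fold change 0.08, adjusted p = 0.0634). The xenobiotic receptors were scarce, with NR1I2 (the pregnane X receptor) at 0.0296 FPKM or less in every library and NR1I3 (the constitutive androstane receptor) at 0.577 FPKM or less, and VDR, the vitamin D receptor, at 0.15 FPKM or less. Those 3 were not tested.

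Of 4 AHR targets outside the P450s, 3 were tested and NQO1, a quinone reductase, rose, with 131, 133 and 131 FPKM in shTRIM15 against 123, 122 and 122 FPKM in shcontrol (log2 fold change 0.10, adjusted p = 0.00660, median of the tested genes 0.05). Of 21 other oxidizing, reducing or hydrolysing enzymes, 11 were tested and 2 were higher, with a median of -0.03. They were MAOB, a monoamine oxidase (log2 fold change 0.12, adjusted p = 0.0142), whose call was lost without shTRIM15 replicate 3 (adjusted p = 0.0542), and CES2, a carboxylesterase (0.16, adjusted p = 0.0418), whose call was lost on leaving out any of the 6 libraries, with adjusted p up to 0.123. Of 25 other conjugating enzymes, 19 were tested and 2 were lower, with a median of -0.03. MGST1, a membrane glutathione transferase, had 29.5, 28.5 and 28.5 FPKM in shTRIM15 against 40.0, 40.6 and 42.0 FPKM in shcontrol, and fell by 0.49 on the log2 scale (SE 0.0280, adjusted p = 0.000186). GSTM3, another glutathione transferase, fell by 0.21 (adjusted p = 0.0135).
Of 11 genes of bile acid synthesis and transport outside the P450s, 7 were tested, with a median of 0.07, and AMACR, the racemase of bile acid intermediates, was higher. It had 3.17, 2.81 and 3.10 FPKM in shTRIM15 against 2.62, 2.11 and 2.12 FPKM in shcontrol (log2 fold change 0.30, adjusted p = 0.0374), a call lost on leaving out any library other than shcontrol replicate 1, with adjusted p up to 0.112. Among the tested genes of these lists and the tested P450s and UGTs, MGST1 had the lowest log2 fold change of FPKM + 1.

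UGT8, which joins galactose to ceramide in myelin-forming cells and was not a member, fell in these libraries to 2.44, 2.93 and 2.86 FPKM in shTRIM15, against 3.56, 3.94 and 3.55 FPKM in shcontrol (log2 fold change -0.32, SE 0.0686, adjusted p = 0.0187). CYP51A1, the cholesterol synthesis P450 left out of the set, did not pass (adjusted p = 0.671).

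The promoter sequence, a feature not used to choose the members, was set beside their level. RefSeq windows on GRCh38.p14, from 250 bases before to 50 after the start, were found for 55 of the 75 members. Of the tested members, UGT2B4, CYP4F12 and CYP27B1 had no matched window. The dinucleotide CG occurred a median of 16.5 times in the 16 matched members past the filter, 3 times in the 39 matched members under it, and 14 times over 27305 genes. At least 20 CG stood in 7 of the 16 (43.8%), in 3 of the 39 (7.69%), and in 41.2% of all genes. All genes were not split by the filter in the same way. Whether the difference between members past and under the filter is particular to these families was therefore not tested. The windows of CYP2S1, with 29 CG, of CYP1A1, with 10, and of CYP3A4, with 0, show the range of CG counts. They lie at chr19:41192969-41193268 on the plus strand, chr15:74725479-74725778 on the minus strand and chr7:99784135-99784434 on the minus strand. Capitals mark the core of the AHR element, GCGTG, and the TATA word TATAAA, both searched on each strand.
CYP2S1: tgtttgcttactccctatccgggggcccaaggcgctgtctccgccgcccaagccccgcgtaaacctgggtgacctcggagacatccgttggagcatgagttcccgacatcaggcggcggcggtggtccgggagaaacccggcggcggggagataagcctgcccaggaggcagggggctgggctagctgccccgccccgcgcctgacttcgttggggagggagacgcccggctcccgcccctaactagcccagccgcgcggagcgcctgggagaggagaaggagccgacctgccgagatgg
CYP1A1: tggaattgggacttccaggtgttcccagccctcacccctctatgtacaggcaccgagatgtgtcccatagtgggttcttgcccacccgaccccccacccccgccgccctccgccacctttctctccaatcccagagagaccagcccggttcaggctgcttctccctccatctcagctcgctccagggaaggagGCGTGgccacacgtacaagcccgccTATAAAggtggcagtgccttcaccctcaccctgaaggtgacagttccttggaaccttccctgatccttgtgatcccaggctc
CYP3A4: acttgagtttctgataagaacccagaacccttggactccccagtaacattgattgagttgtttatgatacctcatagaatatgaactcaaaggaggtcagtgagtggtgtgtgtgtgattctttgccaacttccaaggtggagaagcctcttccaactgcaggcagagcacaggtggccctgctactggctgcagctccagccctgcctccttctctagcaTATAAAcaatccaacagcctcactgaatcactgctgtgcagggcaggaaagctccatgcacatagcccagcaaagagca
CYP2S1 held neither word, CYP1A1 held 1 of each and CYP3A4 held the TATA word. The AHR core word stood in 31.3% of the matched members past the filter, 28.2% of those under it and 36.3% of all genes. The TATA word stood in 31.3% of members past the filter and 35.9% of those under it, against 12.0% of all genes. A match is a description of the letters and not of binding.

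**Figure D5:**
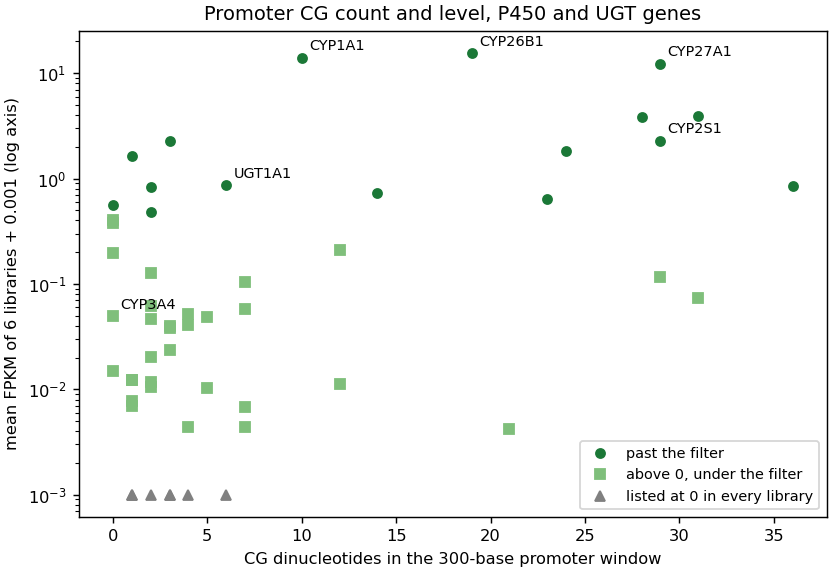
CG dinucleotides in the 300-base RefSeq promoter window (horizontal axis) against mean FPKM of the 6 libraries plus 0.001 (log axis) for the 55 matched P450 and UGT genes, by level class. Of genes with at least 20 CG, 7 are past the filter and 3 are under it, and CYP3A4 stands at 0 CG.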

How the data were processed

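FPKM values per gene and library were deposited by the authors in 1 table, per the file headers, with gene length and position. Libraries were strand-specific and mRNA-enriched, per the labels' protocols. The aligner, the counting tool and whether strand was used are not given in the sources used here. The submitters' processing notes name mm10, a mouse build, but all 58735 rows equal human GENCODE 29 (GRCh38) in identifier, start, end and strand. FPKM times length gave whole reads for 100% of values (tolerance 0.01). The library size implied by the FPKM scale exceeded the summed reads by 1.04 to 1.27% in shTRIM15 and fell below them by 0.359 to 0.370% in shcontrol.

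Genes with at least 0.5 FPKM in 3 or more libraries were compared on the log2(FPKM + 1) scale, which understates changes of low genes, with limma 3.58.1 in R 4.3.3. All 6 libraries were fitted with the group as the term and a mean-variance trend. P-values were two-sided and adjusted by the Benjamini-Hochberg method across the 14847 genes, and a gene was called under 0.05. SE and 95% intervals come from that fit, and SD is over the 3 libraries of a group. The code was tested on simulated data. Members, lists and markers were chosen with earlier results of these data known, so lists are described by counts and medians without a test.

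Named genes were, among members, all past the filter, with values in every library for the gene past the threshold, the 8 highest, the liver enzymes above 0 and those next to the filter, and in lists all genes past the threshold. The values of 1 liver enzyme under the filter are not reported here. Genes beyond that rule (POR, ALAS1, UGDH, AHR, HNF4A, the receptors not tested, UGT8, CYP51A1, ALB, LUM, CD14, LYZ, CYP26A1, CYP26C1, CYP1B1 and the low-count genes without overlap) were chosen after their values were seen. Main transcripts for the shared windows were the APPRIS principal ones of GENCODE 29, and promoter windows the first listed per gene in RefSeq. Alternatives were other pseudocounts and filters, rescaled or quantile-scaled values, no trend, limma voom on the recovered reads, a replicate block and leaving out each library.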

Additional observations from a re-analysis of the deposited data

How the results depend on the processing

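The fall of CYP2S1 kept its direction in every alternative run, with a log2 fold change of -0.36 to -0.25 on leaving out 1 library and -0.45 with voom on whole reads (adjusted p = 0.0118). The count of members lower, 1, was 0 with no filter, with the replicate block, and without 1 of 4 libraries (0 to 1 over the 6 fits), and the count of members higher was 0 in every fit. The cause was not tested. TRIM15 passed in every alternative, at -0.87 to -0.65 on leaving out 1 library. Over all tested genes, the higher count of 1326 was 883 with the replicate block and 792 to 1115 on leaving out 1 library, and the lower count was 978 to 1224. Voom called 1907 higher and 2154 lower. Same-numbered libraries deviated together very little (r = 0.0125, 0.00862 and 0.0133 over 14847 genes), although each library correlated best with its own number. Such weak correlations cannot show whether same-numbered libraries were handled as pairs, which is not given.

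Signs turned for 4 genes near 0. CYP1A1 was 0.025 when rescaled and 0.0036 with quantile scaling, and ran from -0.028 to 0.023 on leaving out 1 library, positive without shTRIM15 replicate 2 or shcontrol replicate 2. CYP27A1 was 0.0076 when rescaled and ran from -0.060 to 0.010, positive without shcontrol replicate 1. CYP39A1 ran from -0.072 to 0.0070, positive without shTRIM15 replicate 2 or shcontrol replicate 3, and UGT2A3 from -0.12 to 0.061, positive without shTRIM15 replicate 3 or shcontrol replicate 2. With few reads, genes near 0.5 FPKM had SE up to 0.161.

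The count of list genes past the threshold in either direction moved as follows. The 3 electron partners were 1 with no filter, no trend or the replicate block, and 1 to 2 on leaving out 1 library. The 2 heme genes were 4 with voom and 2 to 4 on leaving out 1 library, and the 6 regulators were 11 with voom and 5 with no filter, no trend or the replicate block. The 1 AHR target was 0 with no trend. The 2 other oxidation enzymes were 1 with no filter or the replicate block, 0 with no trend, 5 with voom and 0 to 1 on leaving out 1 library. The 1 bile acid gene was 0 with no filter, 3 with voom and 0 to 1 on leaving out 1 library. Of the named list genes, CYB5B, CYB5R3, CES2 and NR1H4 lost their call with no filter, no trend and the replicate block, AMACR with no filter, and MAOB, NFE2L2 and NQO1 with no trend. Of all settings of single genes, 504 kept direction and side of the threshold, 49 kept direction but lost the call and 10 turned sign.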
